A study of Mus musculus with 14 samples.

Results

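The p53 response genes examined here are 10 genes, Cdkn1a, Ccng1, Mdm2, Bax, Bbc3, Pmaip1, Perp, Trp53inp1, Phlda3 and Sesn2. They were taken by name, through every probe set that the platform annotation pairs with exactly 1 of these symbols. That gave 16 of 45037 probe sets, covering 9 of the 10 genes out of 18193 genes with a probe set of 1 symbol. Expression of Bax and of the gene of p53 itself, Trp53, was not analysed here. The values come from GFP-positive cells that were sorted from the cortex of CD1 mouse embryos after in utero electroporation at E14.5, in which DNA is injected into the brain ventricle and driven into the cells lining it by electric pulses. All embryos were electroporated, and they differ in the vector: CtrlGFP, which expresses GFP, or Fezf2GFP, which also expresses Fezf2, which specifies subcerebral projection neurons. Cells were collected at 24 h (3 arrays per vector) or 48 h (4 arrays per vector), so there are 14 arrays in 4 groups. No group without electroporation was analysed here, so what the procedure itself does to p53 targets was not compared. No source used here names the promoter of the vectors. The labels also do not state whether replicate arrays were made from different litters, and the p-values therefore describe the spread between these arrays, part of which may be technical. These are bulk samples, in which fewer cells of a type and less RNA per cell cannot be told apart.

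p53 is a transcription factor that is kept low by the ubiquitin ligase Mdm2 and is stabilised after DNA damage and other stress. Its targets stop the cell cycle (Cdkn1a, which encodes the kinase inhibitor p21), start apoptosis (Bax, Bbc3, Pmaip1 and Perp), restrain growth signalling (Phlda3, Sesn2) and feed back on p53 (Mdm2, Ccng1, Trp53inp1). In the developing cortex, p53 activity is known chiefly for the death of neural progenitors after DNA damage or mitotic delay.

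p53 binds DNA at pairs of a 10-base half-site. Promoters of Perp, Trp53inp1 and Pmaip1 were not searched here, so nothing is said about motifs in them. RefSeq promoter windows (build GRCm38.p6) were used for 7 of the 10 genes, as 10 windows of 250 bases before a transcript start. They were searched for the p53 half-site consensus, which reads the same on both strands, and for 2 adjoining half-sites with at most 2 mismatches in their 20 bases. An exact half-site lay in 1 window each of Cdkn1a, Ccng1, Mdm2 and Bax, and in none of the windows of Bbc3, Phlda3 and Sesn2. Adjoining pairs were found in Cdkn1a, 51 bases before the start, and in Ccng1, 195 bases before it, each with 1 mismatch. Of 32851 windows of the same length, 7.13% held an exact half-site and 0.271% an adjoining pair. The windows of the 3 measured members that hold the motif are shown, with 1 of Sesn1, a further p53 target described below. Another Sesn1 window and a window of Bcl2, also described below, were searched and held 0 exact half-sites and 0 adjoining pairs. The windows shown were thus picked because they hold the motif. Capitals mark exact half-sites and adjoining pairs.
Cdkn1a, chr17:29090729-29090978, plus strand: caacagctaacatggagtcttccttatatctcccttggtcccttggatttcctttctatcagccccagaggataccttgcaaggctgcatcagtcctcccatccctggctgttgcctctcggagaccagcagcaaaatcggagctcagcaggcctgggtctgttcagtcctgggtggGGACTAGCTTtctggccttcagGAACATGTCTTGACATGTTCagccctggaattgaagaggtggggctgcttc
Ccng1, chr11:40755287-40755536, minus strand: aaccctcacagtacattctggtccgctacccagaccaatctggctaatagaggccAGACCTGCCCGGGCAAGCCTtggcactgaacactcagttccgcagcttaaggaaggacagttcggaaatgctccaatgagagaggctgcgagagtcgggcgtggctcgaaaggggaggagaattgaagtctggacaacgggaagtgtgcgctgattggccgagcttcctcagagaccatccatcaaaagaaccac
Mdm2, chr10:117710759-117711008, minus strand: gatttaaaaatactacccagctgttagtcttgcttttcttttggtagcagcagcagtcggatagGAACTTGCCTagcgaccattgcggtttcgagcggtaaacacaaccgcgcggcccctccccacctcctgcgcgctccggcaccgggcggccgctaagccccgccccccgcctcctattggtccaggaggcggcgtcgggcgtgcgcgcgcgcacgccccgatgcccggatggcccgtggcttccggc
Sesn1, chr10:41887189-41887438, plus strand: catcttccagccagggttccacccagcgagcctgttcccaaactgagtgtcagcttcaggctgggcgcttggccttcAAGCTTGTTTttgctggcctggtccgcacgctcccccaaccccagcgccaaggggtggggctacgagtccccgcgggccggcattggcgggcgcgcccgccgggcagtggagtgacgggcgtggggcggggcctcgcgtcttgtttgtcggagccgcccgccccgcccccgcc
A match of letters is a description and not a binding site, and nothing about p53 occupancy was measured.

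The deposited values are log2 signals per probe set, and levels of different probe sets cannot be set against each other. A probe set was called dim below a log2 value of 4. Of the 16 probe sets, 7 lay below it on all 14 arrays and 8 lay above it on at least 3 arrays. One of the others, the lower of the pair for Trp53inp1, exceeded it on 1 array. A gene was represented by its brightest probe set and tested if that exceeded the dim level on at least 3 arrays, which left 6 of the 10 genes: Cdkn1a, Ccng1, Mdm2, Trp53inp1, Perp and Bbc3. Pmaip1, Phlda3 and Sesn2 stayed between 2.42 and 3.04 on every array and every probe set, and no fold change is given for them. Perp was admitted by the Fezf2GFP arrays at 48 h alone, so it had to be higher there. Its values are given as a description, no test is read from them, and the counts below are over the 5 other genes, a choice made after the values were seen.

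Between the vectors, 0 of these 5 genes passed at 24 h and 0 passed at 48 h (limma, Benjamini-Hochberg adjusted p under 0.05 over all 10295 genes tested, where 1.06% and 3.13% of genes passed). At an unadjusted p under 0.05 the count was 1 of 5 at each time, Ccng1 in both cases, where 8.85% of all genes reached it at 24 h and 15.2% at 48 h. The median log2 fold change over the 5 was 0.14 at 24 h and 0.09 at 48 h, against 0.056 and 0.063 over all genes tested. Averaged over both times, a contrast of the same 14 arrays and therefore not independent of the former, 1 of the 5 passed, Ccng1, higher with Fezf2GFP. In that contrast 4.79% of all genes passed, and 4.01% were higher.

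**Figure D1:**
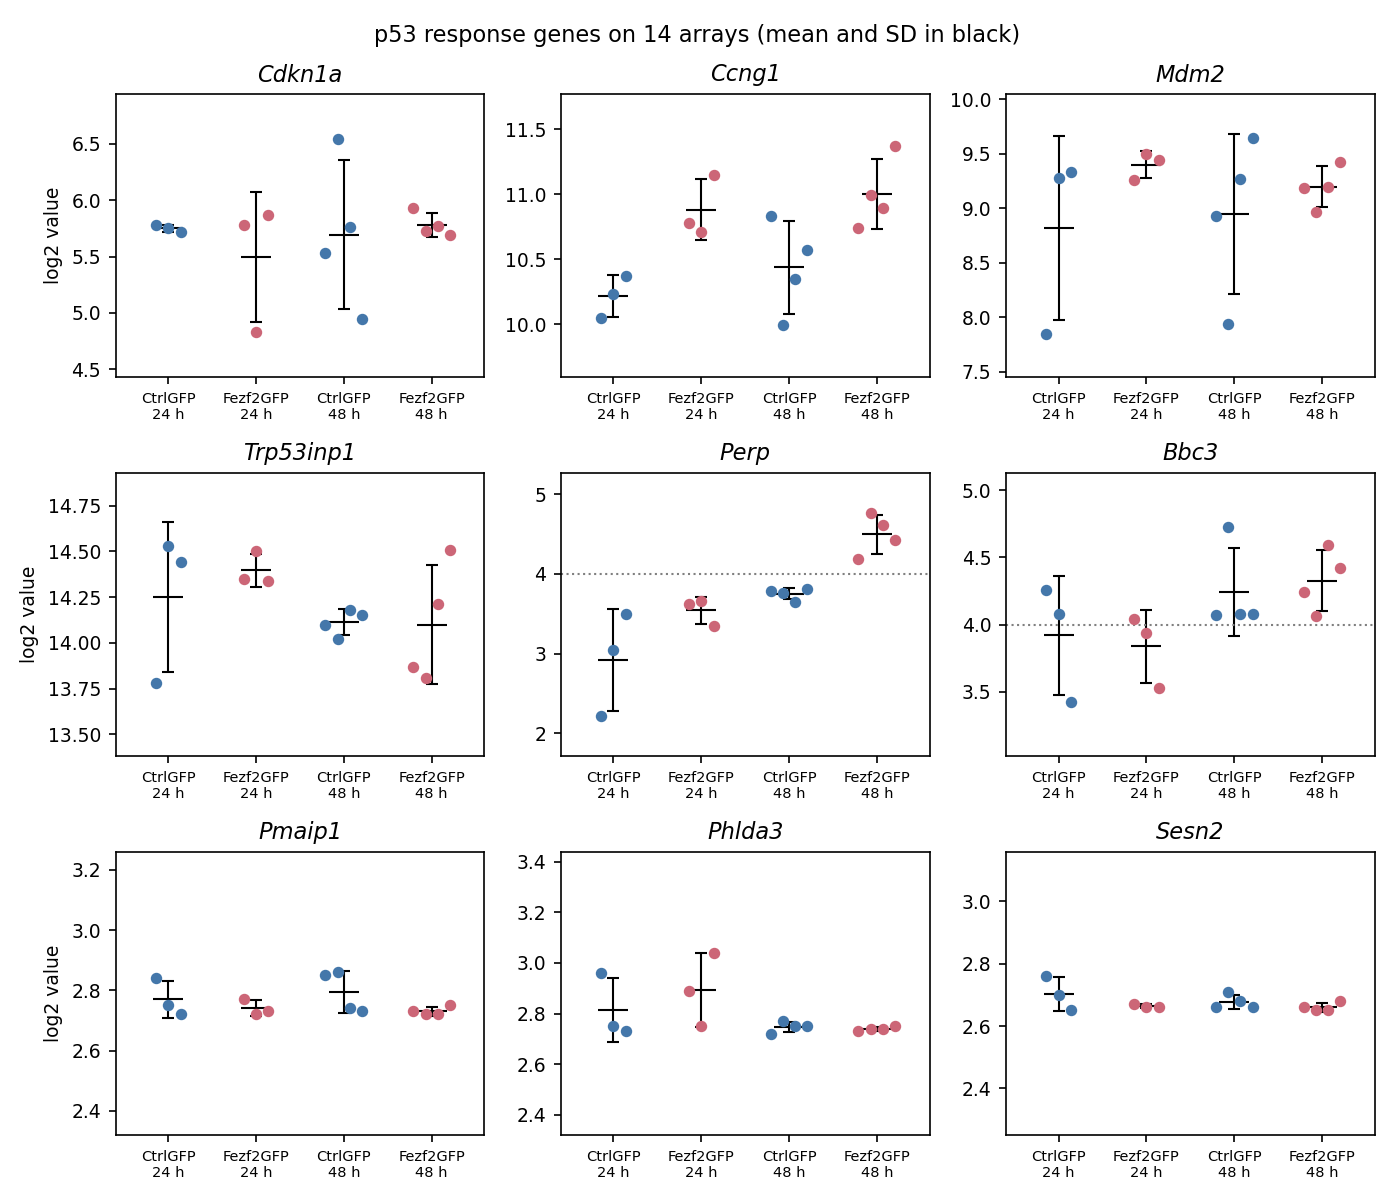
Deposited log2 values (vertical axes, scaled for each gene) of the brightest probe set of the 9 measured p53 response genes, for CtrlGFP (blue) and Fezf2GFP (red) arrays at 24 h and 48 h. Each point is 1 array, the black bars are the mean and SD, and the dotted line is the dim level of 4. All 3 Ccng1 values with Fezf2GFP at 24 h lie above all 3 with CtrlGFP, while Pmaip1, Phlda3 and Sesn2 stay between 2.65 and 3.04.

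Cdkn1a, the main effector of p53-dependent cell cycle arrest, did not differ between the vectors beyond its spread. Its log2 values at 24 h were 5.78, 5.75 and 5.72 with CtrlGFP and 5.78, 4.83 and 5.87 with Fezf2GFP. At 48 h they were 5.53, 6.54, 5.76 and 4.95 with CtrlGFP and 5.93, 5.73, 5.77 and 5.69 with Fezf2GFP. All 4 groups overlapped, and the extremes were CtrlGFP 48 h replicate 2, the highest, and Fezf2GFP 24 h replicate 2, the lowest. The averaged log2 fold change of Cdkn1a was -0.09, with a 95% interval from -0.57 to 0.40 (limma adjusted p = 0.841). That interval is not a limit of detection, since larger changes could also miss the adjusted threshold with this number of arrays. The second Cdkn1a probe set was dim on all arrays.

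Ccng1 encodes cyclin G1, which recruits a phosphatase to Mdm2 and is among the most consistently induced p53 targets. Its values at 24 h were 10.05, 10.23 and 10.37 with CtrlGFP and 10.78, 10.71 and 11.15 with Fezf2GFP. At 48 h they were 10.83, 9.99, 10.35 and 10.57 with CtrlGFP and 10.74, 10.99, 10.89 and 11.37 with Fezf2GFP. The vectors did not overlap at 24 h, a separation seen for 19.6% of the genes tested, and at 48 h only CtrlGFP replicate 1 lay above the lowest Fezf2GFP array. In order, the group means of Ccng1 were 10.22 ± 0.16 (SD, n = 3) with CtrlGFP at 24 h, 10.44 ± 0.36 (n = 4) with CtrlGFP at 48 h, 10.88 ± 0.23 (n = 3) with Fezf2GFP at 24 h and 11 ± 0.27 (n = 4) with Fezf2GFP at 48 h. With either vector, the times differed by no more than 1 standard error (0.22 and 0.11, SE 0.22 each).

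Ccng1 differed between the vectors by 0.66 on the log2 scale at 24 h (SE 0.23, limma adjusted p = 0.308) and 0.56 at 48 h (SE 0.20, limma adjusted p = 0.178). Averaged over both times it was 0.61 (SE 0.15, 95% interval 0.28 to 0.94, limma adjusted p = 0.0367), a 1.53-fold rise. That call held in 6 of 23 alternative fits, over which the fold change of Ccng1 stayed between 0.40 and 0.68 and the adjusted p between 0.0187 and 0.148. Leaving out 1 array ended it in 11 of 14 cases (limma adjusted p from 0.0516 to 0.0933), all but CtrlGFP 48 h replicates 1 and 2 and Fezf2GFP 48 h replicate 1. Without both control arrays that stood apart, described below, the averaged value of Ccng1 was 0.50 (limma adjusted p = 0.0896). The second measured Ccng1 probe set differed in pattern, with 1.52 at 24 h (SE 0.56, limma adjusted p = 0.462) and 0.07 at 48 h (SE 0.48, limma adjusted p = 0.971), and the third was dim on all arrays.

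Mdm2, the ligase that degrades p53 and is itself a p53 target, gave no call. With CtrlGFP it stood at 7.85, 9.28 and 9.33 at 24 h and at 8.93, 7.94, 9.27 and 9.65 at 48 h. With Fezf2GFP it stood at 9.26, 9.50 and 9.44 at 24 h and at 9.19, 8.97, 9.20 and 9.43 at 48 h. Both low values, those under 8, belong to CtrlGFP 24 h replicate 1 and CtrlGFP 48 h replicate 2, the arrays that stood apart from the others. The averaged log2 fold change of Mdm2 was 0.41 (SE 0.28, limma adjusted p = 0.449) with these arrays and 0.00 (SE 0.14, limma adjusted p = 0.996) without them. The mean log2 value of C1qb and Hbb-y, the microglia and blood markers above the dim level, was 9.84 on CtrlGFP 24 h replicate 1 and 3.69 to 7.45 on the other arrays, and its part in the low Mdm2 value was not tested. A second Mdm2 probe set stayed between 4.43 and 4.68 on all arrays, and the third was dim.

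Trp53inp1, a stress-induced nuclear protein that promotes p53 phosphorylation and autophagy, did not differ between the vectors beyond its spread. At 24 h its values ran from 13.78 to 14.53 with CtrlGFP, and with Fezf2GFP, where all 3 lay within that range, the mean was 14.39 ± 0.09 (SD, n = 3). At 48 h they ran from 14.02 to 14.18 with CtrlGFP and from 13.81 to 14.51 with Fezf2GFP, so the vectors overlapped at both times. The averaged log2 fold change of Trp53inp1 was 0.06, with a 95% interval from -0.25 to 0.38.

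Among the apoptosis genes, Perp, a membrane protein of desmosomes and of p53-dependent death, had its highest values with Fezf2GFP at 48 h. There it stood at 4.19, 4.76, 4.61 and 4.43, while the CtrlGFP arrays at 48 h gave 3.78, 3.76, 3.65 and 3.81. At 24 h Perp was below the dim level on all arrays, at 2.22, 3.04 and 3.49 with CtrlGFP and at 3.62, 3.66 and 3.34 with Fezf2GFP. Measured against the dim level, the mean of Perp with Fezf2GFP at 48 h was at least 1.41-fold higher than with CtrlGFP at 48 h or with Fezf2GFP at 24 h. The 3 other groups lay below the dim level on every array, so no fold is given between them.

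Bbc3, which encodes the BH3-only killer protein PUMA, lay at the dim level throughout, from 3.42 to 4.73 over all arrays. Its group means were 3.92 ± 0.44 and 3.84 ± 0.27 at 24 h (CtrlGFP and Fezf2GFP, SD, n = 3 each), then 4.24 ± 0.33 and 4.33 ± 0.23 at 48 h (n = 4 each). The vectors overlapped at both times, and the averaged log2 fold change of Bbc3 had a 95% interval from -0.37 to 0.37.

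**Figure D2:**
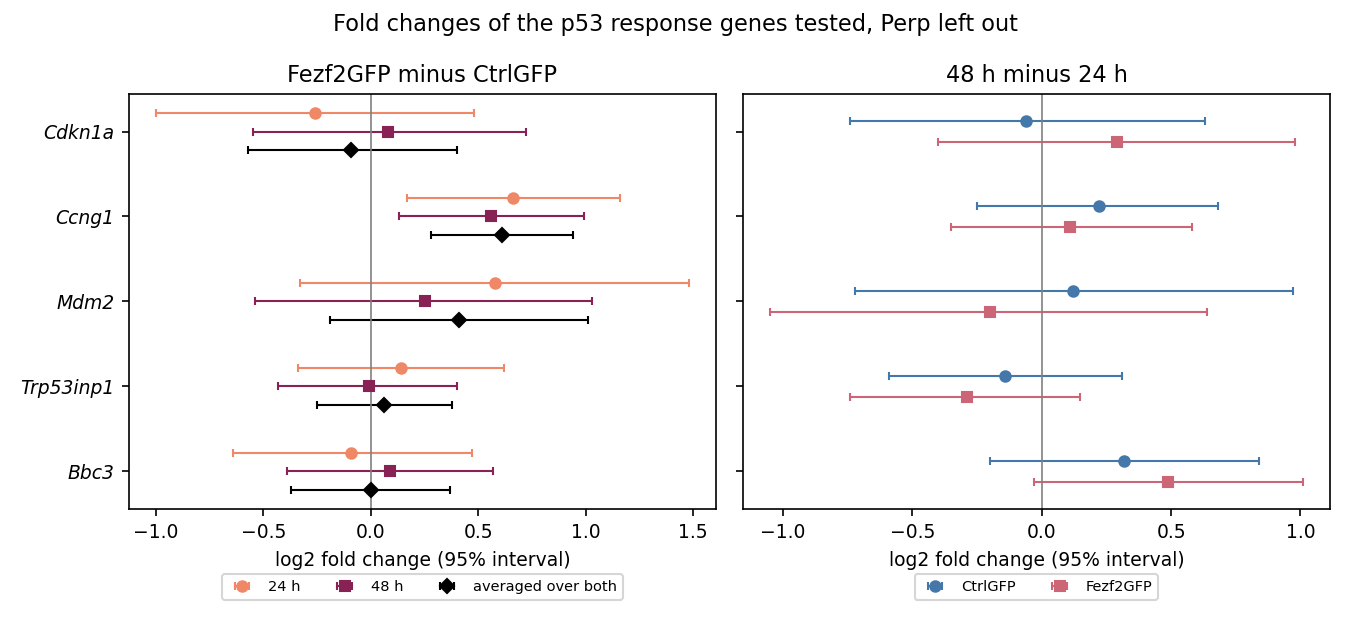
Log2 fold changes (horizontal axes) of 5 tested p53 response genes, Perp left out, from the fit to all 14 arrays, with bars for limma's 95% interval. In the panel of Fezf2GFP minus CtrlGFP, the intervals of Ccng1, which are not adjusted for the number of genes, exclude 0; in the panel of 48 h minus 24 h, every interval includes 0.

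The second question of the design is how these genes move between 24 h and 48 h. With CtrlGFP 0 of the 5 passed, and with Fezf2GFP 0 of 5, where 12.6% and 12.1% of all genes passed (limma), and 0 of 5 had an unadjusted p under 0.05 with either vector. The times were separated for 0 of the 5 genes with CtrlGFP (22.7% of all genes) and for 1 with Fezf2GFP (Bbc3; 26.2% of all genes). Bbc3 had log2 fold changes over time of 0.32 and 0.49 (CtrlGFP and Fezf2GFP; limma adjusted p = 0.493 and 0.234). Cdkn1a stood at -0.06 and 0.29, Ccng1 at 0.22 and 0.11, Mdm2 at 0.12 and -0.20 and Trp53inp1 at -0.14 and -0.29, and none of these passed. In the test of whether the effect of the vector differed between the times, 0 of the 5 passed by limma, where 0.0971% of all genes did, and 0 had an unadjusted p under 0.05, where 4.94% of all genes did.

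By Pearson correlation over the 14 arrays, the tested genes most like Cdkn1a were Cd3eap (0.858), Wdr91 (0.853) and 1700048O20Rik (0.846). Those most like Ccng1 were Chn2 (0.942), Galnt7 (0.918) and Cxxc4 (0.913), and those most like Mdm2 were Setd3 (0.969), Stard7 (0.962) and Rhot1 (0.956). These coefficients describe arrays that share groups and 2 arrays that stood apart. Among the members themselves, Mdm2 and Ccng1 correlated at 0.59, Mdm2 and Trp53inp1 at 0.63, and Mdm2 and Cdkn1a at -0.59 over the 14 arrays. As deviations from group means these were 0.55, 0.68 and -0.59. These pairs were picked from all pairs of members, and each includes Mdm2, whose lowest values lie on the 2 arrays that stood apart. Coefficients without those arrays are not given, so whether these genes vary together was not tested.

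The wider pathway was described from lists of genes, which were drawn up with earlier results of these data known. Between the vectors 1.06% of all genes passed at 24 h and 3.13% at 48 h. Of 16 measured targets of arrest, repair and metabolism, 1 passed at both times, downward: Sesn1, which encodes sestrin 1, an inhibitor of mTORC1 signalling. Its values at 24 h were 13.34, 13.14 and 13.47 with CtrlGFP and 12.20, 12.22 and 11.83 with Fezf2GFP. At 48 h Sesn1 stood at 13.62, 13.60, 13.58 and 13.52 with CtrlGFP and at 12.71, 12.40, 12.42 and 12.20 with Fezf2GFP. Every Fezf2GFP array lay below every CtrlGFP array, a separation found for 19.6% of all genes at 24 h and 9.07% at 48 h. The vectors differed by -1.23 on the log2 scale at 24 h (SE 0.17, limma adjusted p = 0.00332) and -1.15 at 48 h (SE 0.15, limma adjusted p = 0.000798), a 2.35-fold and a 2.21-fold lower level.

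Sesn1 passed at 48 h in 24 of 24 alternative fits and at 24 h in 23 of 24, the exception being the mean of all its probe sets (limma adjusted p = 0.0676). All 4 measured Sesn1 probe sets had fold changes below 0 at both times, from -1.51 to -0.91 at 24 h and from -1.66 to -1.15 at 48 h. The brightest may match more than 1 transcript, as its identifier carries the suffix _s_at. Its relative Sesn2 was dim on both of its probe sets. The median log2 fold changes of this list were 0.12 at 24 h and 0.01 at 48 h over all 16 genes, against 0.056 and 0.063 over all genes tested.

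Gadd45a, a growth arrest gene induced by DNA damage, had its highest values with Fezf2GFP at 24 h. Its values were 7.02, 6.87 and 7.47 with Fezf2GFP at 24 h and 4.22, 5.27, 5.21 and 6.35 at 48 h, against 5.16 to 5.72 and 5.41 to 5.83 with CtrlGFP. Between the times Gadd45a fell by 1.86 on the log2 scale with Fezf2GFP (SE 0.37, limma adjusted p = 0.00574), and with CtrlGFP the change was 0.09 (SE 0.37, limma adjusted p = 0.931). The difference of these changes did not pass (-1.95, SE 0.52, limma adjusted p = 0.442), nor did the vectors at 24 h (1.60, SE 0.40, limma adjusted p = 0.085). Plk2, a polo-like kinase and p53 target that also responds to neuronal activity, rose between the times with CtrlGFP from 5.35 ± 0.32 (SD, n = 3) to 7.32 ± 0.92 (n = 4), or by 1.96 on the log2 scale (SE 0.42, limma adjusted p = 0.00788). The mean of all its probe sets gave 0.98 for Plk2 (limma adjusted p = 0.0111), and the fit of only the groups compared ended the call (limma adjusted p = 0.0526). With Fezf2GFP the change of Plk2 was 0.91 (SE 0.42, limma adjusted p = 0.206), and the difference between the vectors did not pass (limma adjusted p = 0.998). As with Gadd45a, the Plk2 values at 24 h were higher with Fezf2GFP, without overlap (19.6% of all genes). That difference was 1.29 (SE 0.45, limma adjusted p = 0.322) and did not pass, and at 48 h it was 0.24 (SE 0.39). Over time 3 of these 16 genes fell with CtrlGFP and 4 with Fezf2GFP, where 6.69% and 5.67% of all genes fell. Psrc1 and Ckap2, both spindle proteins, fell by 1.55 and 1.68 with CtrlGFP and by 1.83 and 1.63 with Fezf2GFP on the log2 scale. With the mean of all its probe sets Psrc1 gave -0.61 and -0.62 (limma adjusted p = 0.017 and 0.0171).

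Of 7 measured targets that act in cell death, among them Apaf1, the scaffold of the apoptosome, 0 passed in any of the 6 contrasts. Of all genes 0.0971% to 12.6% passed, depending on the contrast. The medians of these 7 targets were 0.20 at 24 h and 0.28 at 48 h for Fezf2GFP against CtrlGFP. In the BCL2 family outside the members, 1 of 8 genes passed at 48 h and 2 averaged over both times, all higher with Fezf2GFP, where 3.13% and 4.79% of all genes passed. Bcl2, the founding inhibitor of mitochondrial apoptosis, stood at 9.46, 7.90, 8.93 and 8.44 with CtrlGFP and at 9.76, 10.03, 10.58 and 10.77 with Fezf2GFP at 48 h, without overlap (9.07% of all genes). Bcl2 rose 3.04-fold, or by 1.60 on the log2 scale (SE 0.31, limma adjusted p = 0.0155), and passed in 22 of 24 alternative fits. The exceptions were the fit without CtrlGFP 48 h replicate 4 and that of only the groups compared. At 24 h the fold change of Bcl2 was 0.51 (SE 0.36, limma adjusted p = 0.711), and the difference between the times did not pass (limma adjusted p = 0.989). Both other measured Bcl2 probe sets had the same sign at 48 h, 2.72 (SE 0.27) and 0.98 (SE 0.52), and the mean of all probe sets gave 1.06 (SE 0.12).

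Bcl2l11, which encodes the BH3-only protein BIM that opposes Bcl2, rose together with it in the averaged contrast (0.86, SE 0.20, limma adjusted p = 0.0272). Its values at 24 h were 8.36, 8.93 and 9.41 with CtrlGFP and 9.87, 9.89 and 9.74 with Fezf2GFP, and at 48 h 8.55, 8.44, 8.71 and 8.54 with CtrlGFP and 9.75, 9.01, 9.91 and 8.74 with Fezf2GFP. The vectors did not overlap at either time, as was so for 19.6% of the genes tested at 24 h and 9.07% at 48 h, and at 48 h the nearest values were 8.71 and 8.74. With the mean of all its probe sets the averaged value of Bcl2l11 was 0.37 (limma adjusted p = 0.021). The call of Bcl2l11 held in 13 of 23 alternative fits and was lost without CtrlGFP 24 h replicate 1 or 2, CtrlGFP 48 h replicate 4 or Fezf2GFP 24 h replicate 1 or 2. It was also lost with no filter, quantile normalization, median centring or the trend with gene span removed, and without both control arrays that stood apart (limma adjusted p from 0.0592 to 0.102). For Bcl2 the averaged call (1.06, SE 0.24, limma adjusted p = 0.0229) was lost when replicate 2 of CtrlGFP 24 h or replicate 1 of Fezf2GFP 24 h was left out. With no filter the Bcl2 call was lost too (limma adjusted p = 0.0574). Over time Bmf, another BH3-only gene, fell by 0.89 with CtrlGFP (SE 0.24, limma adjusted p = 0.027) and by 0.97 with Fezf2GFP (SE 0.24, limma adjusted p = 0.0179), and Bok, a BAX-like effector, rose by 0.78 with CtrlGFP (SE 0.22, limma adjusted p = 0.0336). The Bmf calls were each lost without 4 of the 14 arrays in turn (CtrlGFP 24 h replicates 1 and 2 and 48 h replicates 1 and 4; all Fezf2GFP 24 h replicates and 48 h replicate 2), with the replicate numbers as a block (limma adjusted p = 0.0741 and 0.0508) and with the mean of all probe sets (-0.32 and -0.33, limma adjusted p = 0.0932 and 0.0839). The fit of only the groups compared also ended the Bmf call with CtrlGFP (limma adjusted p = 0.134). That of Bok was lost without 5 (CtrlGFP 24 h replicates 2 and 3 and 48 h replicates 2, 3 and 4), and also with no filter, median centring, the replicate block and only the groups compared (limma adjusted p from 0.0501 to 0.081). Markers of inhibitory interneurons moved in the same direction as Bcl2 and Bcl2l11, with 8 of 8 genes above 0 in the averaged contrast (median 0.88) and 0 passed. Of all genes 59.2% were above 0 in that contrast. Their mean log2 value per array ran from 4 to 4.64 and from 4.17 to 7.03 at 24 h, and from 4.63 to 6.83 and from 5.74 to 6.67 at 48 h (CtrlGFP, then Fezf2GFP). Of 8 markers of endothelium and pericytes 3 were tested, and 3 of 3 were above 0 in the averaged contrast (0.59 to 1.19), with 0 passed. Their mean log2 value per array ran from 4.65 to 6.04 and from 4.64 to 7.26 at 24 h, and from 5.71 to 6.18 and from 5.82 to 7.64 at 48 h (CtrlGFP, then Fezf2GFP). In the averaged contrast 6 of 8 radial glia markers were above 0 (median 0.3, 1 passed, higher). Of 6 neuron markers 5 were above 0 (median 0.25, 0 passed). Of 6 intermediate progenitor markers 2 were above 0 (median -0.15, 1 passed, lower). Of the 2 microglia and blood markers tested, 0 were above 0, with 0 passed. The part of any marker list in these results was not tested.

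**Figure D3:**
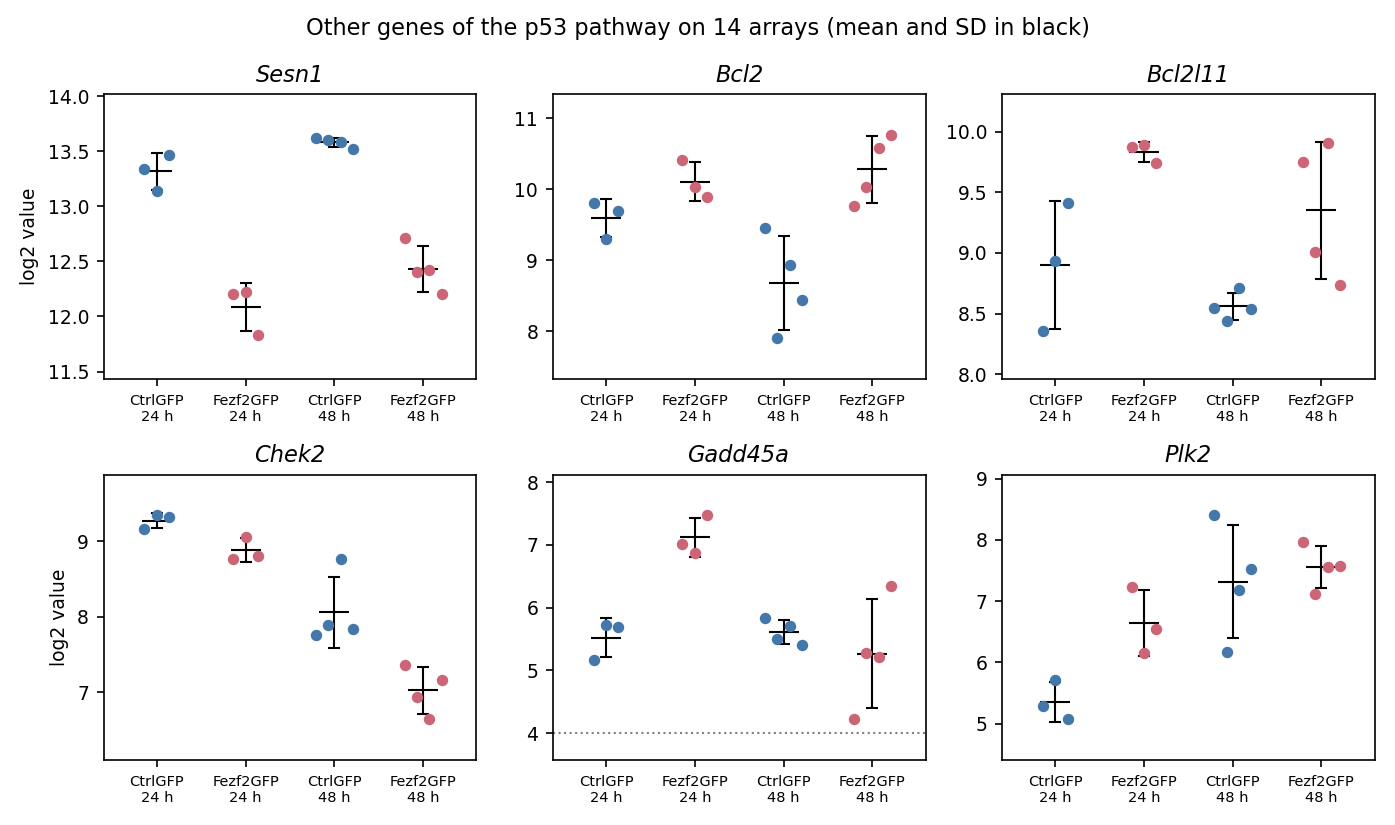
Deposited log2 values (vertical axes, scaled for each gene) of 6 other genes of the p53 pathway for CtrlGFP (blue) and Fezf2GFP (red) arrays at 24 h and 48 h, with mean and SD in black. Sesn1 lies between 11.83 and 12.71 on all Fezf2GFP arrays and between 13.14 and 13.62 on all CtrlGFP arrays; Gadd45a is highest with Fezf2GFP at 24 h.

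Upstream of p53, 10 regulators were measured. For Mdm4, the partner of Mdm2 that blocks p53, the vectors differed by 0.53 on the log2 scale at 24 h (SE 0.36, limma adjusted p = 0.701) and by 0.22 at 48 h (SE 0.31, limma adjusted p = 0.804), and neither passed. Chek2, a kinase that phosphorylates p53 after DNA breaks, was lower with Fezf2GFP at 48 h, at 7.36, 6.93, 6.64 and 7.16 against 7.76, 7.89, 8.76 and 7.83 with CtrlGFP. Chek2 fell by 1.04 on the log2 scale (SE 0.22, limma adjusted p = 0.0237), and the call ended without Fezf2GFP 48 h replicate 2 or replicate 3, with the replicate numbers as a block, and with only the groups compared (adjusted p up to 0.115). Between the times 3 of the 10 regulators fell with each vector, the damage kinases Chek2, Chek1 and Atr, where 6.69% and 5.67% of all genes fell. Chek2 fell by 1.21 and 1.86, Chek1 by 1.34 and 1.73, and Atr by 0.92 and 0.67 on the log2 scale (CtrlGFP, then Fezf2GFP; limma adjusted p from 0.000548 to 0.0359). For Atr the mean of all its probe sets gave -0.09 with CtrlGFP (limma adjusted p = 0.881), and the call with Fezf2GFP was lost without 7 of the 14 arrays in turn (CtrlGFP 24 h replicate 2, all Fezf2GFP 24 h replicates and Fezf2GFP 48 h replicates 1, 2 and 3). That of Chek1 with CtrlGFP was lost without CtrlGFP 24 h replicate 2 or 3 and without both control arrays that stood apart (limma adjusted p = 0.051). The change of Chek1 with CtrlGFP was -0.73 with the mean of all probe sets (limma adjusted p = 0.0416).

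Downstream of p21, the cyclins, their kinases and the genes they release made up 12 measured genes, of which 7 fell with time with CtrlGFP and 5 with Fezf2GFP while Cdkn1a did not pass. Of all genes 6.69% and 5.67% fell, and 0 of the 12 rose. Their medians were -1.06 and -0.98, against -0.019 and -0.01 over all genes. Cdk1, the mitotic kinase, fell by 1.70 and 1.63 (SE 0.27 each), Ccna2, the S-phase cyclin A2, by 1.39 and 1.72 (SE 0.25 each), and Ccne1, the G1/S cyclin E1, by 1.36 and 1.03 (SE 0.23 each) on the log2 scale with CtrlGFP and Fezf2GFP. Ccnd1, the G1 cyclin D1, fell by 1.10 and 1.52 (SE 0.30 each). The Ccnd1 call with CtrlGFP was lost without CtrlGFP 24 h replicate 2 or 3 or CtrlGFP 48 h replicate 1, 2 or 4. It was also lost with no filter (limma adjusted p = 0.061) and with only the groups compared (limma adjusted p = 0.0959). That of Ccne1 with Fezf2GFP was lost without Fezf2GFP 24 h replicate 3. Between the vectors 0 of these 12 passed at 24 h, at 48 h or averaged (limma), where 1.06%, 3.13% and 4.79% of all genes passed. Of 6 intermediate progenitor markers 5 fell with CtrlGFP and 4 with Fezf2GFP over the same interval, and of 8 radial glia markers 2 and 0. The mean log2 value per array of the intermediate progenitor markers ran from 12.23 to 12.74 at 24 h and from 11.01 to 11.75 at 48 h. Their part in the fall of the cell cycle genes was not tested.

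**Figure D4:**
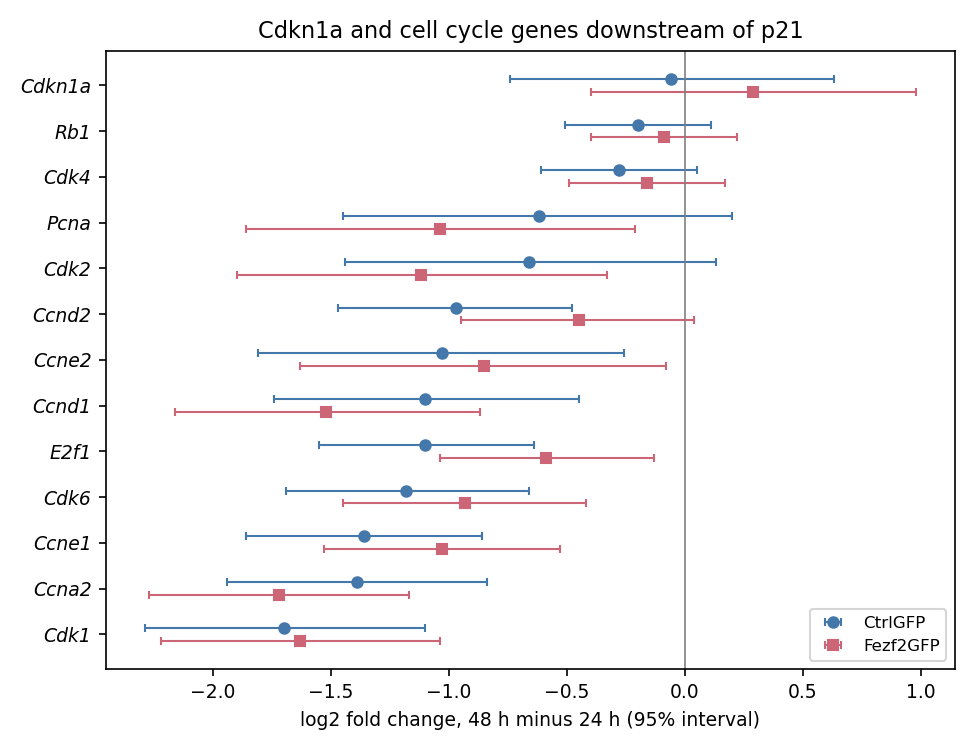
Log2 fold changes from 24 h to 48 h (horizontal axis, bars for limma's 95% interval) of Cdkn1a and of 12 cell cycle genes downstream of p21, with CtrlGFP (blue circles) and Fezf2GFP (red squares). The intervals of Cdkn1a include 0, while Cdk1, Ccna2 and Ccne1 lie below -1 with both vectors.

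Across the series, array medians lay between 3.26 and 3.50, and arrays of a group correlated at 0.942 to 0.993 over the genes tested. CtrlGFP 24 h replicate 1 (median 3.50) and CtrlGFP 48 h replicate 2 (3.45) stood apart, and their deviations from the means of their groups correlated at 0.593. The single probe set of Fezf2 went against the labels, with 11.30 ± 0.42 on the arrays labelled CtrlGFP and 9.44 ± 0.11 on those labelled Fezf2GFP at 24 h (SD, n = 3 each), and 10.15 ± 0.48 and 9.33 ± 0.70 at 48 h (n = 4 each). No source used here says whether this probe set detects the insert of the vector, so every direction between the vectors rests on the labels. Of the markers of radial glia, intermediate progenitors and neurons of the cortex, 0 were dim on all arrays. Of the markers of other tissues, 8 of 10 of microglia and blood, 5 of 8 of endothelium and pericytes and 7 of 7 of meninges were dim on all arrays.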

How the data were processed

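The authors deposited log2 values per probe set of Affymetrix arrays, made with GCRMA per the submitters' processing notes (no source used here states version or settings). The cRNA came from consecutive linear amplifications, per the labels' protocols. Of 45037 probe sets, 34945 had 1 symbol in the platform annotation, 932 several and 9160 none. RefSeq's table (GRCm38.p6) changed 0 symbols through their Entrez IDs.

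For each of 18193 symbols the brightest probe set was kept, and 10295 genes above 4 on at least 3 arrays were fitted with limma 3.58.1 in R 4.3.3 (a mean per group, eBayes, 10 residual degrees of freedom). The contrasts were the vectors at each time and averaged, the times with each vector, and the difference of the vector effects. Expression of Bax and Trp53 was not analysed here. Adjusted p-values are Benjamini-Hochberg over all genes tested. Where every array of a group was dim, the fold is a bound against the level of 4. On simulated data with 200 of 10295 genes changed, a log2 change of 2 was recovered for 80.0% of genes at 24 h and 91.0% at 48 h, and a change of 1 for 40.0% and 47.0%. False calls were 9 of 129 and 11 of 149. The simulated noise was independent between genes and between arrays. Deviations shared by arrays, such as those of the 2 control arrays that stood apart (correlation 0.593), were not simulated, so these shares may not hold for the real arrays.

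The members and gene lists were chosen with earlier results of these data known. All members were named, with Mdm4, up to 3 passing genes per list and contrast by p, and 3 genes most correlated with Cdkn1a, Ccng1 and Mdm2. C1qb, Hbb-y and Fezf2 were named as checks, the former after their values were seen. Alternatives changed the filter, the scaling, the samples, the probe sets used, a block for the replicate number, the trend with gene span, and each array in turn; the count without Perp was added after seeing the data. The number of arrays limits the precision, and signal over background limits dim genes.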

Additional observations from a re-analysis of the deposited data

Results flagged for a closer look

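Bbc3 stood out on 1 array. In CtrlGFP 48 h replicate 2 it was at 4.73, while the other arrays of that group lay between 4.07 and 4.08, a gap of 0.987 of the whole range of the group. This array also had the highest Cdkn1a value and the lowest Mdm2 value of its group and is among those with the highest medians. Of 12 sets of 4 arrays checked in this way 1 was marked, and chance marks about 1 in 20.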

How the results depend on the processing

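The count of p53 response genes that passed averaged over both times moved with most choices, and the cause was not tested. Counted over the 5 genes other than Perp, a choice made after seeing the data, 1 passed averaged over both times, Ccng1. Over time, 0 passed with either vector. Perp is left out of the counts that follow unless stated, because the Fezf2GFP arrays at 48 h alone admitted it to the tests. Averaged over both times, Ccng1 also passed with a dim level of 6, quantile normalization or every probe set on its own. It did not pass with no filter, median centring, the mean of all probe sets of a gene or the trend with gene span removed. The call also ended with the replicate block and without both control arrays that stood apart. Over time with CtrlGFP, 0 of the 5 passed in any alternative fit. With Fezf2GFP the count over time was also 0 in every alternative fit. Between the vectors at 24 h and at 48 h, and for the difference of vector effects, it likewise stayed at 0. With Perp counted as well, leaving out each array gave 0 to 2 for the average and 0 to 1 over time with each vector and at 48 h. It gave 0 at 24 h and for the difference of vector effects. The passes over time and at 48 h were those of Perp. Over all genes, the fit of only the groups compared gave 63 calls at 24 h (109 otherwise), 168 at 48 h (322) and 797 over time with CtrlGFP (1294). For the difference of vector effects the count of 10 became 4 with a dim level of 6, 0 with the replicate block, 16 with every probe set and 5 with the gene span trend removed. Leaving out each array gave 50 to 165 genes at 24 h, 188 to 373 at 48 h, 0 to 12 for the difference, 911 to 1446 and 643 to 1433 over time with CtrlGFP and Fezf2GFP, and 290 to 505 for the average. Median centring shifted the median fold change of all genes by -0.246 at 24 h and -0.177 at 48 h, and the share of calls that were higher went from 76.1% to 57.8% and from 86.3% to 70.9% (quantile normalization 65.1% and 74.5%); for the average it went from 83.8% to 55.5% (69.5%). Correlations of same-numbered deviations ran from -0.06 to 0.32 between the vectors at one time and down to -0.40 across times, and not every pair was over 0.1. Differently numbered arrays are not set beside them, so whether replicate numbers pair the arrays cannot be decided from these values. The main fit used no pairing, and with the block 81 genes passed at 24 h and 232 at 48 h.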
